A study of Mus musculus with 9 samples.

Results

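The mesothelial identity genes examined here are a set of 10 mouse genes that mark mesothelium or act as its transcription factors: Wt1, Bnc1, Msln, Muc16, Upk1b, Upk3b, Lrrn4, Gpm6a, Pdpn and Aqp1. They were taken by symbol from a table of 28059 Entrez gene IDs, and all 10 were found. The set was chosen by measured values in these libraries: RPKM and the difference of the Cdk8 knockout clones from parental cells, with most genes abundant and higher in the clones and Aqp1 lower. Their levels and their differences from parental cells are therefore given as a description, with no test. The difference between the clones played no part in the choice, and it was tested.

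RNA was sequenced from YAMC cells, an immortal mouse line that the labels call intestinal, with small intestine as the tissue, and whose name stands for young adult mouse colon. The groups were Cdk8 -/- clone 1, Cdk8 -/- clone 19 and the wildtype parental line, with 3 libraries each. Both clones carry a CRISPR knockout of Cdk8, which encodes a kinase bound to the Mediator complex, and all cells were grown at 32 °C and harvested in logarithmic growth. Each clone descends from 1 line of cells, and a clone with intact Cdk8 is not analysed here. The effects of losing Cdk8 and of growing a line from a clone cannot be told apart. The labels do not say whether replicates were separate cultures, so a p-value here speaks of the spread among these libraries, which may be technical.

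Mesothelium is the single layer of flat cells that lines the body cavities and covers the organs in them, the intestine included. It arises from the coelomic epithelium, an epithelium of mesodermal origin. It keeps both keratins and many mesenchymal genes, secretes lubricating glycoproteins and is covered with microvilli. WT1 and basonuclin 1 are transcription factors of this layer. Mesothelin, mucin 16, uroplakins, podoplanin and aquaporin 1 lie at its surface.

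Values are RPKM, that is reads scaled to the length of the gene and to the size of the library, as deposited. The estimated depth was 22.6 to 43.3 megareads per library, and 17974 to 18907 IDs were above 0. Log2 values correlated across tested genes at 0.997 to 0.998 within groups and at 0.963 to 0.993 between groups. Cdk8 RNA, the check of the targeted gene, had a mean of 11.0 ± 0.658 RPKM in clone 1, 10.4 ± 0.157 RPKM in clone 19 and 17.6 ± 0.125 RPKM in parental cells (SD, n = 3 each), so it was lower in the clones but still present. These are bulk samples, in which fewer cells of a type and less RNA per cell cannot be told apart.

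The labelled tissue was set against marker genes first. Of 18 intestinal epithelium markers, 17 stayed under 1 RPKM in every library. The exception, Cdh1, averaged 0.521 RPKM in clone 1, 1.25 RPKM in clone 19 and 0.549 RPKM in parental cells. Krt8, Krt18 and Krt19, keratins outside that list, were abundant, with means from 101.0 RPKM (Krt19, parental cells) to 613.9 RPKM (Krt18, clone 1). Cdx2 and Hnf4a, transcription factors that define intestinal epithelium, were listed at 0 in all 9 libraries, as were Alpi and Tff3. Epcam, the pan-epithelial adhesion molecule, reached at most 0.251 RPKM, and Vil1 (villin, of the brush border) at most 0.168 RPKM. The 18 values together summed to 0.828 to 1.62 RPKM in clone 1, 2.06 to 2.62 RPKM in clone 19 and 0.649 to 0.910 RPKM in parental cells. These low values go against the labelled intestinal epithelium as far as its defining markers are concerned. The 10 mesothelial identity genes summed to 1991.7 to 2041.7 RPKM in clone 1 and 2052.5 to 2061.2 RPKM in clone 19. In parental cells they summed to 1116.7 to 1117.9 RPKM. They were chosen in part for their abundance, so nothing is read from these sums.

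Markers of other cells that share some of these genes were looked at in the same way. Upk2 and Upk3a, uroplakins of the urothelium, stayed near 0, and 8 of 11 urothelium markers were under 1 RPKM in every library. Krt14, a basal cell keratin on that list, was abundant, with 45.6 ± 1.95 RPKM in clone 1, 76.4 ± 1.97 RPKM in clone 19 and 43.8 ± 0.766 RPKM in parental cells (SD, n = 3 each), and Pparg stood at 1.56, 1.12 and 1.36 RPKM in the same groups. The list summed to 45.9 to 49.5 RPKM in clone 1, 77.5 to 80.9 RPKM in clone 19 and 45.9 to 47.2 RPKM in parental cells. Nphs1, which encodes nephrin of the podocyte, a kidney cell that also uses Wt1, stayed near 0, and 6 of 8 podocyte markers were under 1 RPKM in every library. The other two, Podxl and Synpo, were expressed and higher in both clones. Synpo, which encodes an actin-binding protein, averaged 7.79 ± 0.447 RPKM in clone 1, 6.76 ± 0.332 RPKM in clone 19 and 3.79 ± 0.0142 RPKM in parental cells (SD, n = 3 each). With Podxl, whose values follow with the mesothelial genes, the list summed to 193.1 to 196.4 RPKM in clone 1, 212.1 to 217.4 RPKM in clone 19 and 84.6 to 86.4 RPKM in parental cells. Of 11 endothelial and lymphatic markers, 9 were under 1 RPKM or at 0, among them Pecam1, Cdh5, Prox1 and Lyve1. Flt4, a receptor for lymphatic growth factors, was expressed, with 24.8 ± 0.658 RPKM in clone 1, 19.2 ± 0.994 RPKM in clone 19 and 10.4 ± 0.387 RPKM in parental cells (log2 fold change 1.21 with adjusted p = 8.9e-10 for clone 1, 0.85 with adjusted p = 1.4e-08 for clone 19, limma). Kdr averaged 0.735 RPKM in clone 1, 0.671 RPKM in clone 19 and 1.63 RPKM in parental cells. The part of these markers in the members' differences was not tested. Of 10 immune cell markers, 9 were under 1 RPKM, with Cd3e at 0. The exception, Cd68, averaged 3.12 RPKM in clone 1, 3.56 RPKM in clone 19 and 2.62 RPKM in parental cells. Fibroblast and smooth muscle markers were high instead, with 10 of 15 above the filter on low values used for the tests. They summed to 1277.4 to 1292.0 RPKM in clone 1, 1166.0 to 1188.2 RPKM in clone 19 and 1101.0 to 1139.1 RPKM in parental cells. Among them Col3a1, a fibrillar collagen, averaged 193.6 RPKM in clone 1, 182.6 RPKM in clone 19 and 151.7 RPKM in parental cells, while Lum, Myh11 and Des stayed under 1 RPKM.

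**Figure D1:**
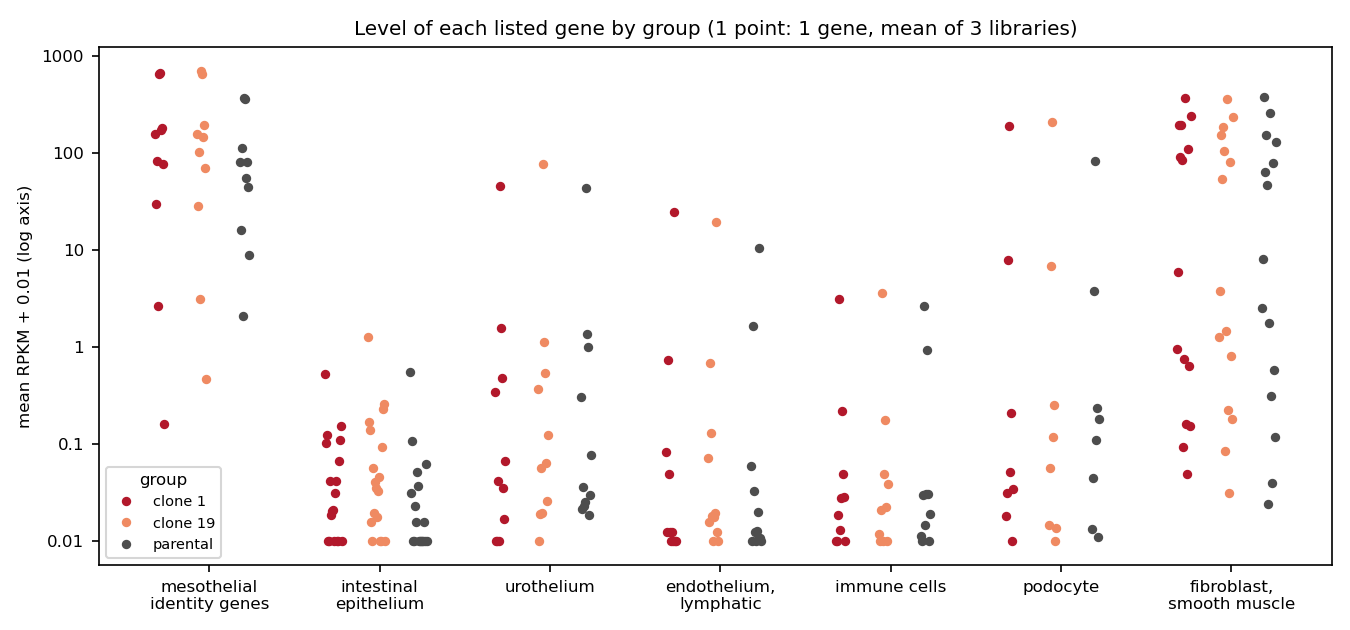
Each point is the mean RPKM of 1 gene over the 3 libraries of a group, plus 0.01, on a log axis, for the mesothelial identity genes and 6 lists of markers of other cells. Of the 18 intestinal epithelium markers, 17 lie under 1 RPKM in every group. Of the 10 mesothelial identity genes, which were chosen in part for their abundance, 8 lie above 10 RPKM in every group.

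Wt1 encodes a zinc finger transcription factor that marks coelomic epithelium and mesothelium. It stood at 157.4, 159.0 and 156.9 RPKM in clone 1, 155.9, 158.1 and 160.1 RPKM in clone 19, against 79.3, 82.5 and 78.5 RPKM in parental cells. All 6 clone libraries lay above all 3 parental ones, and those of the clones overlapped each other. The log2 fold change was 0.97 ± 0.02 in clone 1 and 0.98 ± 0.02 in clone 19 (SE, on log2(RPKM + 0.5)), which is a ratio of mean RPKM of 1.97 in either clone. Bnc1, basonuclin 1, a zinc finger protein of stratified epithelia, germ cells and mesothelium, was lower in level and followed a like pattern. It stood at 30.0, 28.9 and 29.5 RPKM in clone 1, 27.7, 28.4 and 28.6 RPKM in clone 19, against 16.1, 16.5 and 16.1 RPKM in parental cells. The 3 groups did not overlap, with clone 1 at the top. Its fold change on the log2 scale was 0.84 ± 0.03 in clone 1 and 0.78 ± 0.03 in clone 19. The ratio of Wt1 to Bnc1, both per length, was 5.35 ± 0.135 in clone 1, 5.60 ± 0.035 in clone 19 and 4.93 ± 0.0731 in parental cells (SD, n = 3 each).

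The uroplakins were the most abundant members. Uroplakins are membrane proteins known from the plaques of the bladder lining, and Upk1b (a tetraspanin) and Upk3b are also used by mesothelium. Upk1b stood at 639.0, 655.0 and 639.7 RPKM in clone 1, 713.0, 694.0 and 703.4 RPKM in clone 19, against 365.1, 360.8 and 363.8 RPKM in parental cells. Upk3b stood at 660.8, 683.3 and 654.9 RPKM in clone 1, 653.1, 659.8 and 652.0 RPKM in clone 19, against 351.8, 356.3 and 356.2 RPKM in parental cells. Both genes were well above the parental range in every clone library. Upk1b separated the clones, whereas the Upk3b ranges of the clones overlapped. Among all 28059 IDs, Upk3b held rank 28 by mean RPKM in clone 1, rank 32 in clone 19 and rank 67 in parental cells. Upk1b held rank 32 in clone 1, rank 28 in clone 19 and rank 66 in parental cells. The log2 fold change of Upk1b was 0.83 ± 0.02 in clone 1 and 0.95 ± 0.02 in clone 19. That of Upk3b was 0.91 ± 0.02 in clone 1 and 0.88 ± 0.02 in clone 19. The pair kept a ratio near unity, with Upk1b over Upk3b at 0.967 ± 0.00908 in clone 1, 1.07 ± 0.0204 in clone 19 and 1.02 ± 0.0128 in parental cells (SD, n = 3 each). The other uroplakin genes Upk1a, Upk2, Upk3a and Upk3bl, the last of them similar in name and sequence to Upk3b, were all under 1 RPKM in every library, with sums of 0.428 to 0.749 RPKM in clone 1, 0.586 to 0.717 RPKM in clone 19 and 0.357 to 0.583 RPKM in parental cells.

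Lrrn4 and Gpm6a had the largest differences from parental cells among the members that were higher. Lrrn4 encodes a leucine-rich repeat membrane protein. It stood at 169.8, 170.6 and 169.4 RPKM in clone 1, 140.7, 149.6 and 147.1 RPKM in clone 19, against 55.9, 55.6 and 55.4 RPKM in parental cells. No group overlapped another, and clone 1 was the highest. The log2 fold change was 1.60 ± 0.02 in clone 1 and 1.38 ± 0.02 in clone 19, with ratios of mean RPKM of 3.05 in clone 1 and 2.62 in clone 19. Gpm6a encodes a multi-pass membrane glycoprotein that is abundant in neurons and also found in mesothelium. It stood at 177.5, 177.2 and 181.5 RPKM in clone 1, 193.6, 188.3 and 192.8 RPKM in clone 19, against 82.0, 81.0 and 79.4 RPKM in parental cells. Here clone 19 was the highest group, again without overlap. Against parental cells its log2 fold change was 1.14 ± 0.02 in clone 1 and 1.24 ± 0.02 in clone 19. Their relatives Lrrn1, Lrrn2, Lrrn3 and Gpm6b were each under 1 RPKM in every library.

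Pdpn encodes podoplanin, a mucin-type membrane protein that binds the ERM proteins ezrin and moesin under the membrane. It stood at 73.8, 79.8 and 77.6 RPKM in clone 1, 69.0, 70.6 and 69.5 RPKM in clone 19, against 42.8, 45.3 and 44.8 RPKM in parental cells. The clones lay above parental cells and did not overlap each other. On the log2 scale Pdpn was higher by 0.79 ± 0.03 in clone 1 and 0.65 ± 0.03 in clone 19. The 50 tested genes nearest to Pdpn in the gene order also lay above parental cells, with a median log2 difference of 0.30 for clone 1 and 0.24 for clone 19. After that median was subtracted in each library, Pdpn differed by 0.50 in clone 1 and by 0.40 in clone 19. Whether the neighbours bear on Pdpn was not tested.

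Msln and Muc16 encode binding partners at the cell surface, and they differed in direction. Msln encodes the GPI-anchored glycoprotein mesothelin. It stood at 80.5, 84.7 and 82.5 RPKM in clone 1, 104.5, 100.7 and 97.7 RPKM in clone 19, against 114.3, 108.5 and 111.6 RPKM in parental cells. Unlike most members it was lowest in clone 1 and highest in parental cells, and the 3 groups did not overlap. Msln had a log2 fold change of -0.43 ± 0.03 in clone 1 and -0.14 ± 0.03 in clone 19. The 50 tested genes nearest to Msln had a median log2 difference of -0.35 for clone 1 and -0.12 for clone 19. After subtraction of the neighbours, Msln differed by -0.08 in clone 1 and by -0.03 in clone 19, so little of its difference exceeded theirs. Muc16, the large membrane mucin also known as CA125, stood at 2.69, 2.86 and 2.36 RPKM in clone 1, 3.35, 2.54 and 3.42 RPKM in clone 19, against 2.05, 2.01 and 2.21 RPKM in parental cells. All clone libraries were above the parental ones, but the clones overlapped and their spread was wide, with a coefficient of variation of 9.71% in clone 1 and 15.7% in clone 19 against 5.14% in parental cells. Muc16 had a log2 fold change of 0.27 ± 0.10 in clone 1 and 0.47 ± 0.10 in clone 19. The 10 other mucin genes examined, Muc1 and Muc4 among them, stayed under 1 RPKM in every library.

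Aqp1, a water channel of mesothelium, red cells and kidney tubules, went the opposite way and by far more. It stood at 0.140, 0.211 and 0.104 RPKM in clone 1, 0.444, 0.499 and 0.453 RPKM in clone 19, against 8.42, 9.30 and 8.70 RPKM in parental cells. No group overlapped another. Mean RPKM was 58.1-fold lower in clone 1 and 18.9-fold lower in clone 19 than in parental cells, and the log2 fold change, which the pseudocount of 0.5 RPKM holds back at such levels, was -3.84 ± 0.08 in clone 1 and -3.27 ± 0.08 in clone 19. At the estimated depths and a GENCODE exon length of 2627 bases, these values stand for about 8.3 to 17.7 reads in clone 1, 28.9 to 43.0 reads in clone 19 and 671.7 to 958.1 reads in parental cells. Aqp1 passed the filter on low values through the parental libraries alone. Its neighbours had a median log2 difference of 0.13 for clone 1 and 0.09 for clone 19. Of the other 10 aquaporins, Aqp5 alone passed that filter, and its mean was 0.764 ± 0.0375 RPKM in clone 1, 0.899 ± 0.0807 RPKM in clone 19 and 2.25 ± 0.279 RPKM in parental cells (SD, n = 3 each). It too passed through the parental libraries alone, which fixes the direction of a test, so none is given.

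**Figure D2:**
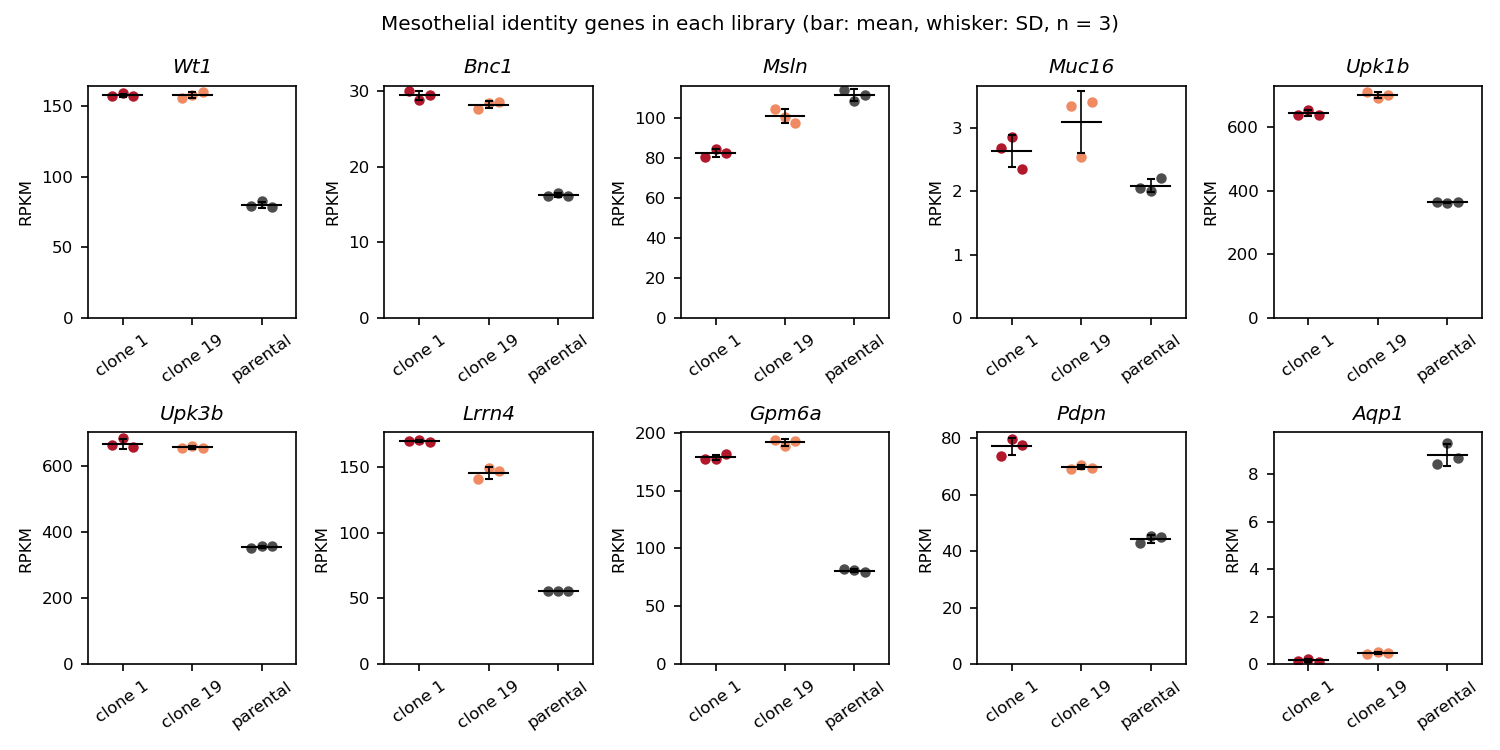
RPKM of each of the 10 members in every library, 1 panel per gene with its own linear axis from 0, for clone 1, clone 19 and parental cells (points: libraries, bar: mean, whisker: SD, n = 3). In 8 panels the clones sit above parental cells, whereas Msln and Aqp1 are highest in parental cells.

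Over the members, 8 were higher and 2 lower in clone 1, with a median log2 fold change of 0.84, and the counts were the same in clone 19, with a median of 0.83. All 10 members separated from parental cells without overlap in each clone, as did 75.1% of all 12568 tested genes in clone 1 and 73.5% in clone 19. A call by limma was made for 72.4% of tested genes in clone 1 and 69% in clone 19. Since these contrasts chose the members and both share the parental libraries, nothing is read from the counts. The median over all tested genes was 0.03 in clone 1 and 0.02 in clone 19.

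**Figure D3:**
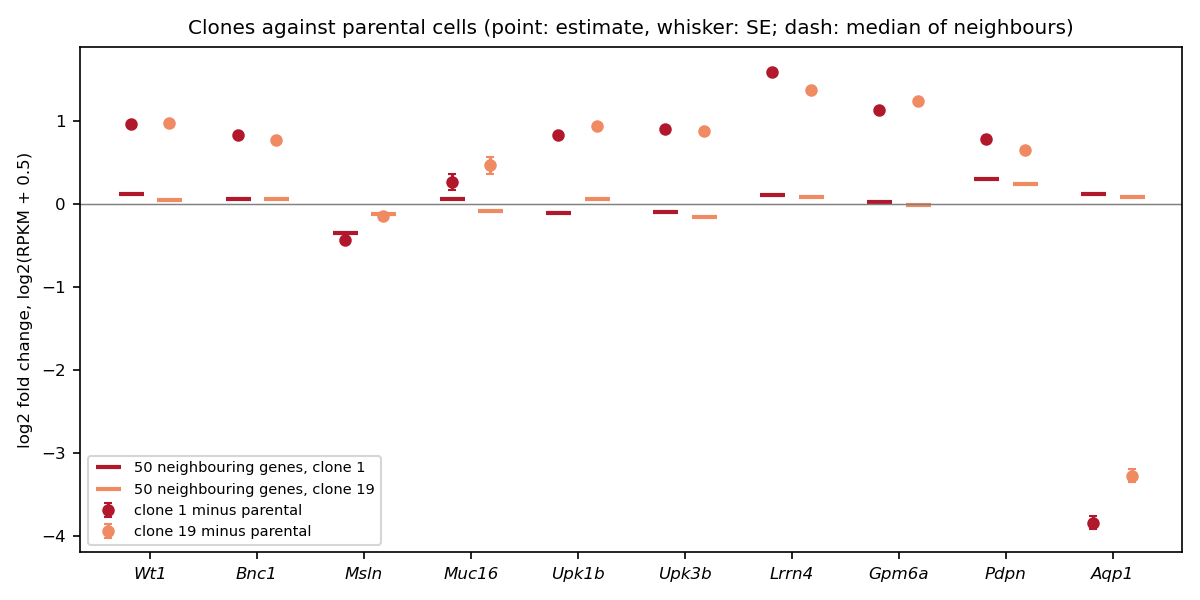
Plotted for each member is the log2 fold change on log2(RPKM + 0.5) in clone 1 and clone 19 against parental cells (points, whisker: SE), with the median change of the 50 nearest tested genes as dashes. For Msln the dashes lie close to the points, at -0.35 and -0.12, whereas for Lrrn4, Gpm6a and Aqp1 they lie near 0.

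Levels per length also changed their order. Msln, with a mean of 82.6 ± 2.12 RPKM in clone 1, 100.9 ± 3.39 RPKM in clone 19 and 111.5 ± 2.91 RPKM in parental cells (SD, n = 3 each), had place 6 of 10 in either clone, behind the uroplakins, Gpm6a, Lrrn4 and Wt1. In parental cells it had place 3, behind the uroplakins alone. Lrrn4 had place 4 in clone 1, place 5 in clone 19 and place 6 in parental cells. Neighbours in this order overlapped in 2 places, Upk3b with Upk1b in clone 1 and Gpm6a with Wt1 in parental cells. Muc16 was last in parental cells, and Aqp1 was last in both clones.

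Promoter sequences are shown for genes at the extremes of these patterns: Lrrn4 and Gpm6a with the largest higher levels, Upk3b as an abundant member, Bnc1 as a transcription factor, and Aqp1 as the member that was lower. They are from RefSeq (GRCm38.p6) and run from 250 bases before to 50 bases after the annotated start, 5′ to 3′ on the gene's strand. The table held windows for 7 of the 10 members, namely Bnc1, Muc16, Upk3b, Lrrn4, Gpm6a (with a pair of starts), Pdpn and Aqp1, and none for Wt1, Msln and Upk1b. Capitals mark matches on either strand to 7 motifs: the TATA box TATAAA, the GC box GGGCGG, the CCAAT box CCAAT, a WT1 and EGR core GCGNGGGNG, a GATA core GATAA, a TEAD core GGAATG and the AP-1 site TGANTCA.
Lrrn4, chr2:132880813-132881112, minus strand: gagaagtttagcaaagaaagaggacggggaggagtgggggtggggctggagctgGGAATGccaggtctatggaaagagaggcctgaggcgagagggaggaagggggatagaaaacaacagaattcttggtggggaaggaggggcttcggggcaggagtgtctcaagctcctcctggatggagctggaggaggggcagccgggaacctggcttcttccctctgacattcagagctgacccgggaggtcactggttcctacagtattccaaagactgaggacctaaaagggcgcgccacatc
Gpm6a, chr8:54779184-54779483, plus strand: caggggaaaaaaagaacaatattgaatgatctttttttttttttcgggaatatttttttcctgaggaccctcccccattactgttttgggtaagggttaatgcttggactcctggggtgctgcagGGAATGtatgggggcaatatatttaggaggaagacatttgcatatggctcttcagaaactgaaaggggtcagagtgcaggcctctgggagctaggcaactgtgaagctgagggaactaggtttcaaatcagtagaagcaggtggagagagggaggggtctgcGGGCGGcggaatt
Upk3b, chr5:136038246-136038545, plus strand: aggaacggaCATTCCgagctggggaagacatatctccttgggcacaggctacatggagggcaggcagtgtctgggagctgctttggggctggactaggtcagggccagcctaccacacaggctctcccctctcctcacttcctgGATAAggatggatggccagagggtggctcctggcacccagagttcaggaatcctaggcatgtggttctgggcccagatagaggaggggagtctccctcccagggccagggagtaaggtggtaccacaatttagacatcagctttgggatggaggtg
Bnc1, chr7:81992250-81992549, minus strand: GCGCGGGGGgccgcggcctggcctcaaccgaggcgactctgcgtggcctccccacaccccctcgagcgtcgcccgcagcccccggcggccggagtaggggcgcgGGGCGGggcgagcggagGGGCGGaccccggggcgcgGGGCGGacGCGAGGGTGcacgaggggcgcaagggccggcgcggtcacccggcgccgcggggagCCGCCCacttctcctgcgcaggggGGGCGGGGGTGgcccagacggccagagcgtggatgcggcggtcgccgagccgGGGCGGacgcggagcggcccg
Aqp1, chr6:55336049-55336348, plus strand: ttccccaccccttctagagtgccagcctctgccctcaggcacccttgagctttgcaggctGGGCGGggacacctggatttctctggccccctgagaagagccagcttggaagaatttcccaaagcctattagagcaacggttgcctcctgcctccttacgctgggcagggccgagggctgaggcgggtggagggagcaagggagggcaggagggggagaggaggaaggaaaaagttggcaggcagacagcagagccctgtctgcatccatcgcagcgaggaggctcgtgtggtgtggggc

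These windows differed in CpG content, and none of the motifs was found in all of them. Bnc1 had 50 CpG dinucleotides in 300 bases, more than 99.1% of the 32851 promoters of the table, with 6 GC boxes and 3 matches to the WT1 and EGR core, 1 of which overlaps a GC box. A GC box is held by 35.7% of all promoters and that core by 12.3%. Lrrn4 had 7 CpG, Aqp1 8, Gpm6a 4 and Upk3b 2, against a median of 7 over all promoters. The TEAD core was found in Lrrn4, Upk3b and the Gpm6a window shown, and in 14.7% of all promoters. The GATA core was found in Upk3b and in Muc16, and in 25.4% of all promoters. Aqp1 and the Gpm6a window shown each held a single GC box. A match is a description of letters, not a binding site.

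Between the clones, Wt1 was the member with the closest levels, and Aqp1, Msln and Lrrn4 were furthest apart on the log2 scale. All 10 passed the filter of at least 1 RPKM in at least 3 libraries, Aqp1 through parental cells alone. Of the 10 members, 6 passed the test (limma with Benjamini-Hochberg adjustment over 12568 genes, called at an adjusted p under 0.05). Of these, 4 were higher and 2 lower in clone 19 than in clone 1. Over all tested genes 43% were called in this contrast, 18.5% higher and 24.5% lower, and nothing particular to the members is read from 6 of 10. The libraries of clone 19 and clone 1 did not overlap for 7 members, as for 51.5% of all tested genes. None of the 10 differed by at least 2-fold on the log2(RPKM + 0.5) scale.

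Aqp1 averaged 0.465 ± 0.0296 RPKM in clone 19 and 0.152 ± 0.0544 RPKM in clone 1 (SD, n = 3 each), with a log2 difference of 0.57 (95% interval 0.40 to 0.74, adjusted p = 2.1e-04, limma) and a ratio of mean RPKM of 3.07. That difference rests on few reads, and it came to 1.19 with a pseudocount of 0.1 RPKM and 0.35 with 1 RPKM. Msln was higher in clone 19 by 0.29 (0.22 to 0.35, adjusted p = 3.7e-05, limma), in 3 of 3 libraries above all of clone 1. Its neighbours were higher by a median of 0.24, and with them subtracted the difference was 0.05 (adjusted p = 0.15, limma), so that the call ended. Upk1b was higher in clone 19 by 0.13 (0.09 to 0.16, adjusted p = 1.8e-04, limma), with neighbours higher by 0.17; with them subtracted its difference was -0.04 (adjusted p = 0.23, limma). Gpm6a was higher by 0.10 (0.06 to 0.14, adjusted p = 0.0021, limma), and here the neighbours differed by a median of -0.03.

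Lrrn4 averaged 145.8 ± 4.57 RPKM in clone 19 and 170.0 ± 0.602 RPKM in clone 1, a log2 difference of -0.22 (-0.27 to -0.17, adjusted p = 3.2e-05, limma). It was as large with neighbours subtracted, at -0.20. Pdpn was lower in clone 19 by a log2 difference of -0.14 (-0.21 to -0.08, adjusted p = 0.0036, limma), a call that ended with neighbours subtracted (-0.09, adjusted p = 0.054, limma). The other 4 members did not pass. Wt1 differed by 0.00 (-0.05 to 0.05, adjusted p = 0.94, limma) and Upk3b by -0.02 (-0.06 to 0.02, adjusted p = 0.30, limma). Bnc1 differed by -0.06 (-0.12 to -0.01, adjusted p = 0.070, limma), with 3 of 3 clone 19 libraries below clone 1. Muc16 differed by 0.19 with a wide interval of -0.02 to 0.41 (adjusted p = 0.14, limma), and without clone 19 replicate 2 it was called higher in clone 19 (0.31, adjusted p = 0.011, limma).

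**Figure D4:**
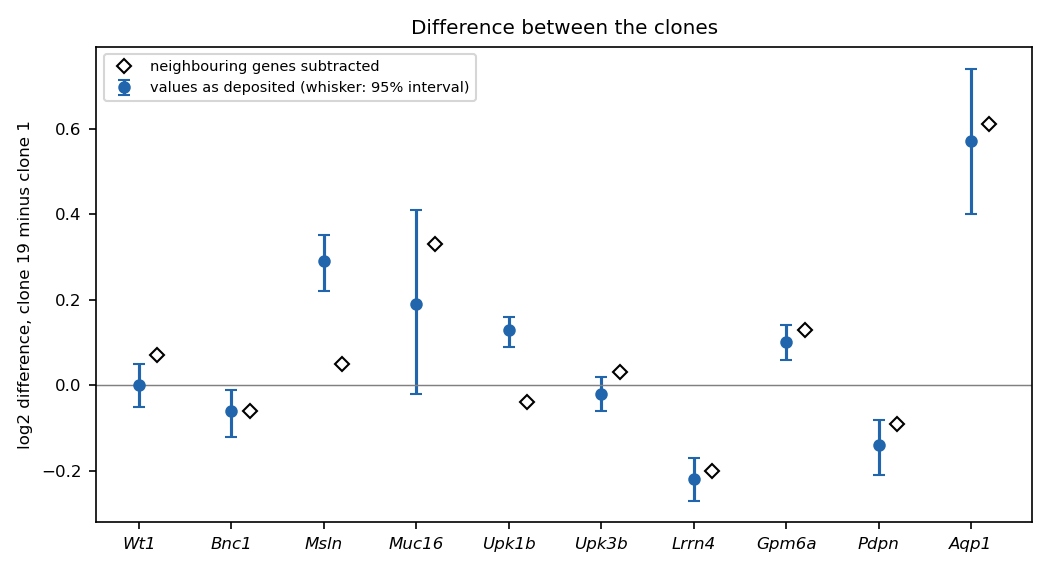
Log2 difference of each member between clone 19 and clone 1 on log2(RPKM + 0.5) (points, whisker: 95% interval from limma), with the difference after subtraction of neighbouring genes as diamonds. Msln and Upk1b move to near 0 with neighbours subtracted, at 0.05 and -0.04, whereas Lrrn4 and Aqp1 keep most of their difference.

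Other mesothelial genes went both ways against parental cells. A list of 25 had 19 genes past the filter. Has1 and Rarres2 passed through parental cells alone and Tm4sf5 through clone 19 alone, and such genes had to differ. Of the other 16, 11 rose, 4 fell and 1 missed the threshold in clone 1, with a median log2 fold change of 0.58, where 39.8% of all tested genes were called higher and 32.6% lower. In clone 19, 13 of the 16 rose, 2 fell and 1 was not called, with a median of 0.64, against 36.7% higher and 32.3% lower over all tested genes. With those 3 genes kept, the median in clone 1 was 0.18 and the counts were 11 higher and 6 lower. Without any 1 parental library Has1 and Rarres2 dropped below the filter, and the median over the 17 genes left was 0.50 to 0.52. Without any 1 clone 19 library Tm4sf5 dropped below it, and the median over 18 genes was 0.34. In clone 19 the count lower was 4 with the 3 genes kept and 2 over the 17 genes left without any 1 parental library. Alcam, an adhesion molecule of mesothelial precursors, averaged 65.8 ± 1.65 RPKM in clone 1, 81.8 ± 2.61 RPKM in clone 19 and 27.0 ± 0.832 RPKM in parental cells (log2 fold change 1.27 with adjusted p = 9.2e-11 for clone 1, 1.58 with adjusted p = 2.6e-11 for clone 19, limma). Podxl, which encodes the sialomucin podocalyxin, averaged 186.8 ± 1.57 RPKM in clone 1, 207.2 ± 3.03 RPKM in clone 19 and 81.5 ± 1.09 RPKM in parental cells (1.19 with adjusted p = 6.2e-12 for clone 1, 1.34 with adjusted p = 4.2e-12 for clone 19, limma). Rspo1, a secreted amplifier of Wnt signalling that mesothelium makes, averaged 16.2 ± 0.844 RPKM in clone 1, 19.6 ± 0.150 RPKM in clone 19 and 6.59 ± 0.311 RPKM in parental cells (1.23 with adjusted p = 9.9e-10 for clone 1, 1.5 with adjusted p = 2.6e-10 for clone 19, limma). These genes rose by about as much as Lrrn4 and Gpm6a. The 4 that fell in clone 1 were Krt7 (-2.11, adjusted p = 1.5e-10, limma), Nkain4 (-0.97), Igfbp6 (-0.71) and Cd200 (-0.11). Krt7 averaged 4.74 RPKM in clone 1, 14.9 RPKM in clone 19 and 22.1 RPKM in parental cells. In clone 19 Krt7 (-0.56) and Cd200 (-0.48) fell, while Nkain4 (0.33) and Igfbp6 (0.27) rose. Efemp1 rose by 0.14 in clone 1 and 0.11 in clone 19. With neighbours subtracted it was called lower, at -0.12 and -0.13.

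Has1, a hyaluronan synthase, was low, with 0.504 ± 0.0509 RPKM in clone 1, 0.451 ± 0.0473 RPKM in clone 19 and 1.36 ± 0.0555 RPKM in parental cells (SD, n = 3 each), and for the reason given it has no test. Calb2, which encodes the mesothelial and neuronal protein calretinin, was listed at 0 in all 9 libraries. Itln1, Fgf9, Thbd and Aldh1a2, which mesothelium can also express, stayed under 1 RPKM. C3, a complement protein, was called higher in clone 19 than in clone 1 (log2 difference 1.10, adjusted p = 1.5e-07, limma). So were Krt7, a keratin of simple epithelia (1.55, adjusted p = 6.3e-08, limma), and Nkain4 (1.30, adjusted p = 8.4e-06, limma). Tm4sf5 averaged 1.79 RPKM in clone 19, 0.434 RPKM in clone 1 and 0.429 RPKM in parental cells, with no test. Of the 16 genes, 10 were higher in clone 19 than in clone 1, 3 were lower and 3 were not called. Over all tested genes, 18.5% were called higher and 24.5% lower in that contrast.

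The coelomic and epicardial transcription factors were mixed as well. Of 18, 12 passed the filter, Sox9 through parental cells alone. Of the other 11, 7 rose, 3 fell and 1 was not called in clone 1 (median 0.38), and 5 rose, 3 fell and 3 were not called in clone 19 (median 0.07). Over all tested genes, 39.8% were called higher and 32.6% lower in clone 1, and 36.7% and 32.3% in clone 19. In clone 19, with Sox9 kept, 5 were higher and 4 lower. Without any 1 parental library Sox9 dropped below the filter, which left 11 genes. Of these, 4 were higher and 2 lower without parental replicate 1, and 5 and 2 without parental replicate 3. Gata6, a zinc finger factor of coelomic and cardiac mesoderm, averaged 63.4 ± 1.48 RPKM in clone 1, 63.1 ± 0.810 RPKM in clone 19 and 35.1 ± 0.931 RPKM in parental cells (log2 fold change 0.84 with adjusted p = 3.7e-10 for clone 1, 0.84 with adjusted p = 4.3e-10 for clone 19, limma). Tbx18, a T-box factor of the epicardium, rose by 0.92 in clone 1 and 0.73 in clone 19 (adjusted p = 1.7e-08 for clone 1, 1.2e-07 for clone 19, limma), and Bnc2, the paralog of Bnc1, rose by 0.81 in clone 1 and 0.89 in clone 19 (adjusted p = 1.2e-07 for clone 1, 6.2e-08 for clone 19, limma). The 3 that fell did so in both clones. They were Emx2 (-0.84 with adjusted p = 2.3e-08 for clone 1, -0.65 with adjusted p = 2.0e-07 for clone 19, limma), Nr2f2 (-0.24 for clone 1, -0.13 for clone 19) and Lhx2 (-0.19 for clone 1, -0.13 for clone 19). With neighbours subtracted, Emx2 and Nr2f2 kept their sign, whereas Lhx2 changed to 0.06 in clone 1 (adjusted p = 0.27, limma). In clone 19 Lhx2 was then called higher, at 0.12 (adjusted p = 0.048, limma). Foxf1, which rose by 0.22 in clone 1, changed to -0.18 with neighbours subtracted (adjusted p = 0.014, limma). Sox9 averaged 0.0861 ± 0.0149 RPKM in clone 1, 0.286 ± 0.0453 RPKM in clone 19 and 1.44 ± 0.0449 RPKM in parental cells (SD, n = 3 each), with no test. Tcf21, another epicardial factor, stayed near 0 in every library.

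**Figure D5:**
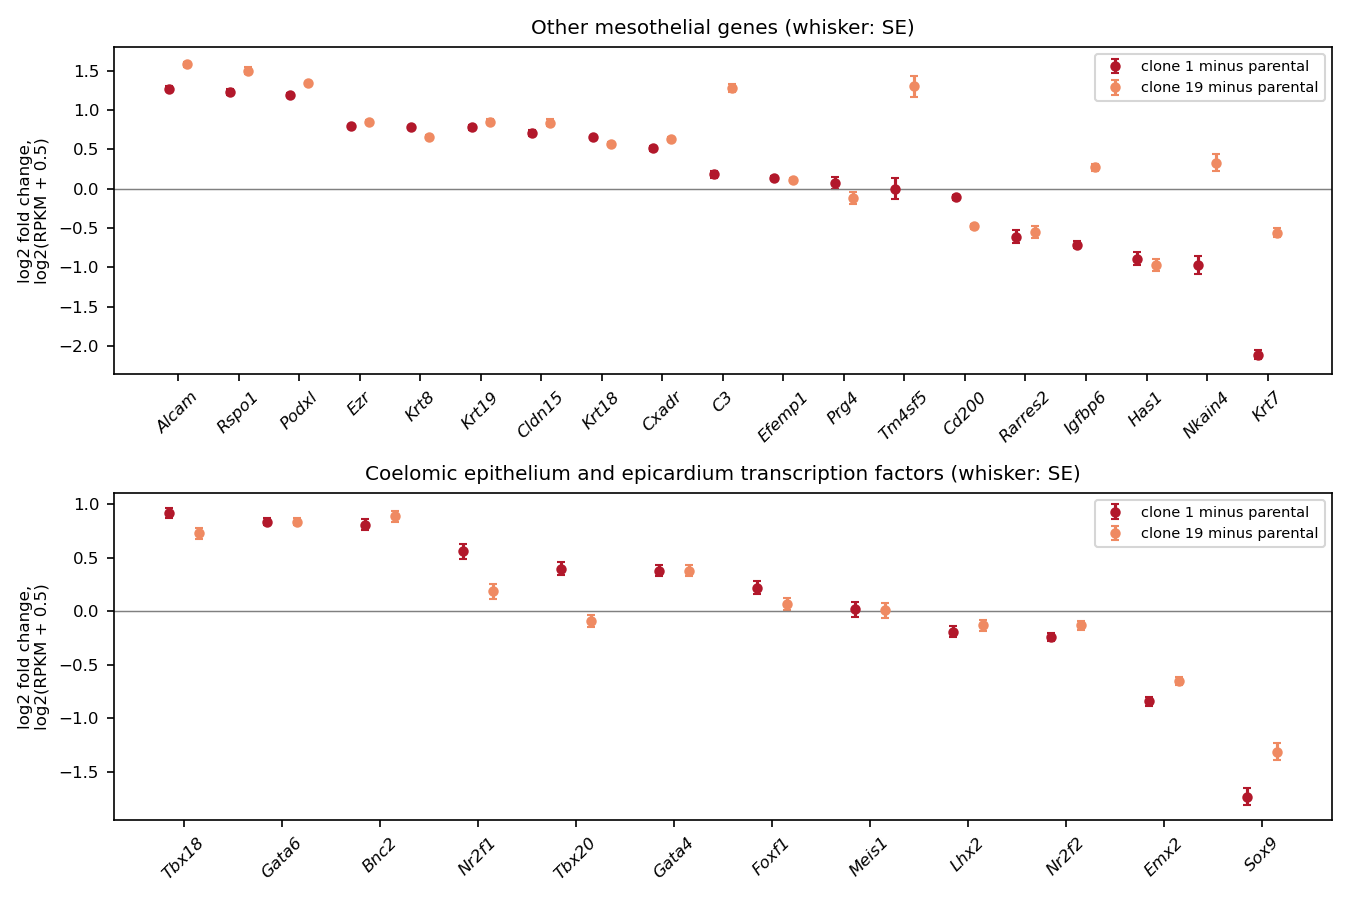
Log2 fold change on log2(RPKM + 0.5) of the genes past the filter in a list of other mesothelial genes (upper panel) and of coelomic and epicardial transcription factors (lower panel), in clone 1 and clone 19 against parental cells (whisker: SE). Alcam, Rspo1 and Podxl lie above 1 in both clones, whereas Krt7 and Emx2 lie below 0. Has1, Rarres2 and Sox9 passed the filter through parental cells alone and Tm4sf5 through clone 19 alone. Nothing is read from the direction of these genes.

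Genes known as partners or targets of WT1 were called in both directions. Of 23, 13 passed the filter, Igf2 and Sox9 through parental cells alone and Cdh1 through clone 19 alone. Of the other 10, 5 rose, 3 fell and 2 were not called in clone 1 (median 0.16), and 5 rose, 4 fell and 1 was not called in clone 19 (median 0.17). Beside this list and those below, 39.8% of all tested genes were called higher and 32.6% lower in clone 1. In clone 19 these shares were 36.7% and 32.3%. With the 3 kept, 5 were higher and 5 lower in clone 1 (median -0.02) and 6 higher and 6 lower in clone 19 (median -0.01). Without any 1 parental library Igf2 and Sox9 dropped below the filter, which left 11 genes. Of these, 5 were higher and 3 lower in clone 1, and 6 and 4 in clone 19 with a median of 0.34 to 0.36. Podxl, described above, was among those that rose. Igf2 averaged 0.752 ± 0.0365 RPKM in clone 1, 0.486 ± 0.0365 RPKM in clone 19 and 6.04 ± 0.172 RPKM in parental cells (SD, n = 3 each), with no test. Snai1, a repressor of epithelial genes, fell by 1.59 in clone 1 and 1.89 in clone 19 on the log2 scale (adjusted p = 8.0e-08 for clone 1, 2.3e-08 for clone 19, limma). Of 11 podoplanin partners and ERM genes, 9 were tested. In clone 1, 4 rose, 4 fell and 1 did not pass, and in clone 19, 1 rose, 6 fell and 2 did not pass. The 4 lower calls in clone 1 were 2 without clone 1 replicate 2, without parental replicate 1 or without parental replicate 2, and 2 without a variance trend. In clone 19, 2 rose without clone 19 replicate 3. Ezr, which encodes ezrin, was the one that rose in clone 19, at 479.2 ± 3.05 RPKM in clone 1, 499.4 ± 7.07 RPKM in clone 19 and 277.4 ± 2.85 RPKM in parental cells (0.79 with adjusted p = 2.7e-11 for clone 1, 0.85 with adjusted p = 2.4e-11 for clone 19, limma), while Msn, which encodes moesin, fell by 0.05 in clone 1 and 0.16 in clone 19 (adjusted p = 0.046 for clone 1, 4.5e-05 for clone 19, limma). Among 24 tetraspanins, the family of Upk1b, 18 were tested: 9 rose, 8 fell and 1 missed the threshold in clone 1, and 10 rose, 7 fell and 1 missed the threshold in clone 19. Tspan6 (1.36 with adjusted p = 4.1e-10 for clone 1, 1.04 with adjusted p = 3.2e-09 for clone 19, limma) and Tspan9 (0.80 with adjusted p = 2.7e-09 for clone 1, 1.49 with adjusted p = 4.5e-11 for clone 19, limma) rose, and Tspan7 fell (-2.04 with adjusted p = 1.0e-09 for clone 1, -0.76 with adjusted p = 2.8e-06 for clone 19, limma).

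Fibroblast and smooth muscle genes moved beside the members, and their part in the results was not tested. Of 10 tested, 6 rose and 4 fell in clone 1, and 4 rose, 5 fell and 1 missed the threshold in clone 19. The shares over all tested genes were 39.8% higher and 32.6% lower in clone 1, and 36.7% and 32.3% in clone 19. Col1a1, the main chain of type I collagen, averaged 194.8 ± 3.41 RPKM in clone 1, 151.5 ± 5.20 RPKM in clone 19 and 374.9 ± 14.0 RPKM in parental cells (-0.94 with adjusted p = 5.8e-10 for clone 1, -1.30 with adjusted p = 7.2e-11 for clone 19, limma). S100a4, a calcium-binding protein used as a fibroblast marker, averaged 241.7 ± 4.78 RPKM in clone 1, 236.4 ± 4.81 RPKM in clone 19 and 128.3 ± 4.53 RPKM in parental cells (0.91 with adjusted p = 3.3e-10 for clone 1, 0.88 with adjusted p = 4.3e-10 for clone 19, limma). Dcn, which encodes the proteoglycan decorin, also rose, and Pdgfra, a growth factor receptor of fibroblasts, fell in both clones.

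The genes most like 3 of the members were taken by Pearson's r with the member over the 9 libraries on the log2(RPKM + 0.5) scale, among 734 genes whose group means differed by at least 1 on that scale. The libraries fall into 3 groups, so r mostly reflects the group means and is given with no p. For Wt1 they were Ermp1 (r = 0.9993), Map2 (0.9991) and Aldh1a1 (0.9989). Aldh1a1, a retinaldehyde dehydrogenase, averaged 237.0 ± 2.91 RPKM in clone 1, 235.2 ± 3.30 RPKM in clone 19 and 105.7 ± 2.22 RPKM in parental cells. For Msln they were Rasl11a (0.9874), Paqr7 (0.9859) and Mn1 (0.9850), each lowest in clone 1, between in clone 19 and highest in parental cells. For Aqp1 they were Tead2 (0.9990), Cd24a (0.9987) and Loxl1 (0.9985). Tead2, a TEAD transcription factor, averaged 16.7 ± 0.378 RPKM in clone 1, 19.3 ± 0.438 RPKM in clone 19 and 38.0 ± 0.433 RPKM in parental cells.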

How the data were processed

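RNA of 9 libraries was sequenced; the labels' protocols name an RNA-easy extraction and TruSeq library preparation. The authors deposited RPKM values for 28059 Entrez gene IDs, 1 column per library, and the submitters' processing notes list GSNAP, DESeq and the build NCBIM37 for the authors' processing. The sources used here give no tool version, annotation or counting rule. An RPKM depends on the gene model and on the composition of the library, and reads of overlapping genes or near-identical copies can be split or lost.

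IDs were named by RefSeq's GRCm38.p6 gene table (24998 IDs, 3061 without a name), used for names and gene order; promoter coordinates are those of GRCm38.p6. Depth was estimated from what 1 read was worth in genes above 0 in at most 2 libraries, with GENCODE M21 exon lengths, so no count test was run; its values are estimates, not read totals. limma 3.58.1 in R 4.3.3 was fitted on log2(RPKM + 0.5), all 9 libraries in 1 model of group means and a trend of variance with level, over 12568 genes with at least 1 RPKM in at least 3 libraries, with Benjamini-Hochberg adjustment within a contrast. Fold changes understate low genes. The scripts were tested on simulated data. Neighbours are the 50 nearest tested genes on the chromosome.

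The members, the 15 lists of other genes (203 entries, all in the table) and the rules were chosen with earlier results of these data known. All members were named, with up to 4 genes of each list ranked by calls of like direction and the smaller of both fold changes. Others were chosen after their values were seen: C3, Tm4sf5, Krt7, Krt8, Krt18, Krt19, Nkain4, Igfbp6, Cd200, Efemp1, Emx2, Nr2f2, Lhx2, Foxf1 and genes near 0. Alternatives were other pseudocounts, filters and scalings, no trend, array weights, a replicate block, 6 libraries at a time, a 2-fold threshold, neighbours subtracted and each library left out, for members and lists. Added after seeing the data, list counts leave out genes that passed the filter through 1 group alone.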

Additional observations from a re-analysis of the deposited data

Results flagged for a closer look

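The difference between the clones passed the test for 6 members, each over 3 libraries per clone (limma, adjusted over 12568 genes). On the log2 scale clone 19 minus clone 1 was 0.57 for Aqp1, 0.29 for Msln, 0.13 for Upk1b and 0.10 for Gpm6a, all higher in clone 19. It was -0.22 for Lrrn4 and -0.14 for Pdpn, both lower in clone 19. In each of the 6, all 3 libraries of one clone lay beyond all 3 of the other. Over all tested genes 43% were called in this contrast and 51.5% did not overlap, so nothing particular to the members is read from these counts. Groups of 3 were too small for a test of a library that stands apart.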

How the results depend on the processing

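With a requirement of at least 2-fold, genes called came to 561 in clone 1 and 512 in clone 19 against parental cells and to 58 between the clones, with 0 members between the clones. With each library left out in turn, 8368 to 9082 genes were called in clone 1 against parental cells, 7904 to 8766 in clone 19 against parental cells and 4402 to 5164 between the clones. The members called between the clones were 5 to 7. Aqp1 was not tested without a parental library. With neighbouring genes subtracted, Upk1b between the clones changed sign to -0.04 (adjusted p = 0.23, limma), and Msln (0.05) and Pdpn (-0.09) lost their calls; Wt1 (0.07, adjusted p = 0.036, limma) and Muc16 (0.33, adjusted p = 0.029, limma) gained one. Upk3b gained one with quantile normalization (-0.07, adjusted p = 0.013, limma). The causes were not tested. Replicate numbers are shared by the groups, but same-numbered libraries deviated together with r of only -0.04 to 0.12, so they were not taken as pairs. With a replicate block, 9037, 8574 and 5169 genes were called in clone 1 and clone 19 against parental cells and between the clones, with 6 members. With median-ratio scaling the share of calls that were higher was 49.0% in clone 1 and 49.3% in clone 19 against parental cells and 50.2% between the clones, against 55.0%, 53.2% and 43.1%. Depth limits Aqp1 in the clones. Muc16, low per length, had about 1458.0 to 2540.0 reads per library at the estimated depths, and the cause of its spread was not tested.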
